A study of Mus musculus with 6 samples.

Results

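The replication-dependent histone genes of the mouse were examined in donor hematopoietic stem and progenitor cells (HSPCs) recovered from recipient mice after bone marrow transplantation (BMT). Members were the protein-coding genes whose GENCODE M21 symbol begins with Hist1h, Hist2h, Hist3h or Hist4h, which gave 67 genes, namely 6 of the linker histone H1, 18 of H2A, 18 of H2B, 12 of H3 and 13 of H4. Of the 24965 genes with a measurement, 54 were members (6 H1, 12 H2A, 13 H2B, 10 H3 and 13 H4), and the other 13 members were not analysed here. The data were 6 bulk RNA-seq libraries, 3 from Hemgn-/- donors and 3 from wild-type (WT) donors. The donors were on a C57BL/6 (CD45.2) background, and the Hemgn-/- allele was made with zinc finger nucleases as a small deletion in the coding sequence. All CD45.1+ recipients had received a split dose of 9 Gy and 20000000 donor bone marrow cells. CD45.2+ Lin- Sca-1+ donor cells were sorted 6 h later, and per the labels each group has 3 replicates. The mice were 8 to 10 weeks old.

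Nucleosomes are built from a core of H2A, H2B, H3 and H4 around which DNA is wrapped, and H1 binds the linker DNA between them. The replication-dependent genes supply these proteins when DNA is copied, and they lie in clusters without introns in most members. Their mRNAs are known for ending in a conserved stem-loop in place of a poly(A) tail, which is bound by the stem-loop binding protein SLBP. Some members also use a poly(A) site further downstream, mainly in cells that are leaving the cycle. Replication-independent variants such as H2A.Z and H3.3 are made throughout the cell cycle from ordinary polyadenylated mRNAs.

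In the GRCm38 annotation, 23 members lay at chr13:21715763-22043676, 31 at chr13:23531050-23934851, 10 at chr3:96219865-96270132, 2 at chr11:58948920-58956830 and 1 at chr6:136801553-136804415. The histone 3′ stem-loop, searched for as 6 paired bases on each side of a loop of 4 bases, was found in the annotated transcript of 46 of the 67 members (68.7%), against 0.495% of 21834 other protein-coding genes. It began 21 to 58 bases after the stop codon, with a median of 31. The following windows are shown because these members carry the level and genotype results described below. Each is read 5′ to 3′ on the strand of the gene, with the stem-loop in capitals and 7 bases on either side.
Hist1h1c (H1, chr13:23739505-23739534, plus strand): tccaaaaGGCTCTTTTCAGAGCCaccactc
Hist3h2a (H2A, chr11:58955165-58955194, plus strand): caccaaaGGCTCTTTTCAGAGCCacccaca
Hist1h2bg (H2B, chr13:23571836-23571865, plus strand): acccaaaGGCTCTTTTCAGAGCCacccata
Hist1h2bb (H2B, chr13:23747196-23747225, plus strand): acccaaaGGCTCTTTTAAGAGCCacccaca
Hist2h4 (H4, chr3:96262932-96262961, minus strand): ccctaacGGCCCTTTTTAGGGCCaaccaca
Hist1h4d (H4, chr13:23581943-23581972, plus strand): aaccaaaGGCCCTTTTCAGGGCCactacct
Hist1h4h (H4, chr13:23531451-23531480, plus strand): aaccaaaGGCCCTTTTCAGGGCCgcccaca

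Stem-loops followed the histone class. The form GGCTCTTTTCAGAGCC was present in 26 members, 3 of H1, 10 of H2A, 8 of H2B and 5 of H3, and in no H4 gene. The 12 H4 genes with a stem-loop carried forms that none of the other classes had, the most frequent being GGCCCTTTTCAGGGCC in 7 genes. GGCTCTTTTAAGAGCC was found in 6 members. Of the 21 members with no stem-loop in the annotated transcript, 17 had an annotated 3′ UTR of 60 bases or less, including 13 with none, so that the place where it would lie was outside or at the end of the model. The other 4 were the H2B genes Hist2h2be, Hist1h2bc, Hist1h2bq and Hist1h2br, whose annotated transcripts have longer 3′ UTRs.

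One linker histone gene accounted for most of the signal. Hist1h1c (chr13:23738808-23740367, 1 exon), which encodes the somatic linker histone H1.2, had 102, 141 and 106 FPKM (the fragments of a gene divided by its length in kb and by the library total in units of 1000000) in the WT libraries and 110, 120 and 118 FPKM in the Hemgn-/- libraries. The lowest and the highest of the 6 libraries were both WT, and the groups overlapped. Hist1h1c ranked 364 of the 24965 genes by mean FPKM (98.5th percentile), and it supplied 77.0% to 82.2% of the FPKM summed over the members in each library. Between 3782 and 5643 fragments lay behind each value. The next member, Hist3h2a, was 22.2 times lower at a mean of 5.24 FPKM.

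All other members were far lower than Hist1h1c, and most were low for the table. By mean FPKM Hist3h2a still lay at the 75.4th percentile and Hist1h4i at the 67.3rd. For the libraries, the labels give TruSeq and the methods of the study Smart-Seq2, which primes on poly(A) tails. Levels here are those in the libraries, and the part of the protocol in the member levels was not tested. The median of the 54 means was 0.207 FPKM, against 0.758 FPKM over all genes in the table. Of the 54 members, 10 reached a mean of 1 FPKM and 17 were under 0.1 FPKM. Fragments were seen in all 6 libraries for 29 members and in 1 library only for 11, while 18 members had at most 3 fragments in every library. The libraries held 23667817 to 28897637 fragments, so that 1 fragment on a transcript of 1 kb was worth 0.0346 to 0.0423 FPKM. For such a transcript 3 fragments come to 0.104 to 0.127 FPKM, a limit that covers counting error only.

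Ranked by mean FPKM, the highest members of each core histone class were as follows. Among H2A genes Hist3h2a had a mean of 5.24 FPKM, ahead of Hist1h2ac with 1.08 FPKM and Hist1h2ae with 0.899 FPKM. H2B was led by Hist1h2bg (2.67 FPKM), Hist3h2ba (2.23 FPKM) and Hist2h2be (1.48 FPKM). For H3 the highest means were those of Hist1h3i (1.06 FPKM) and Hist1h3d (0.970 FPKM), and for H4 those of Hist1h4i (2.91 FPKM), Hist2h4 (2.02 FPKM) and Hist1h4d (1.12 FPKM). Neighbours in these orders overlapped between libraries in several cases. Hist1h3i ranged from 0.617 to 1.81 FPKM and Hist1h3d from 0.237 to 1.77 FPKM, which leaves their order undetermined. Hist3h2a, with 4.53 to 6.51 FPKM, did not overlap with any other core histone gene among the members.

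**Figure D1:**
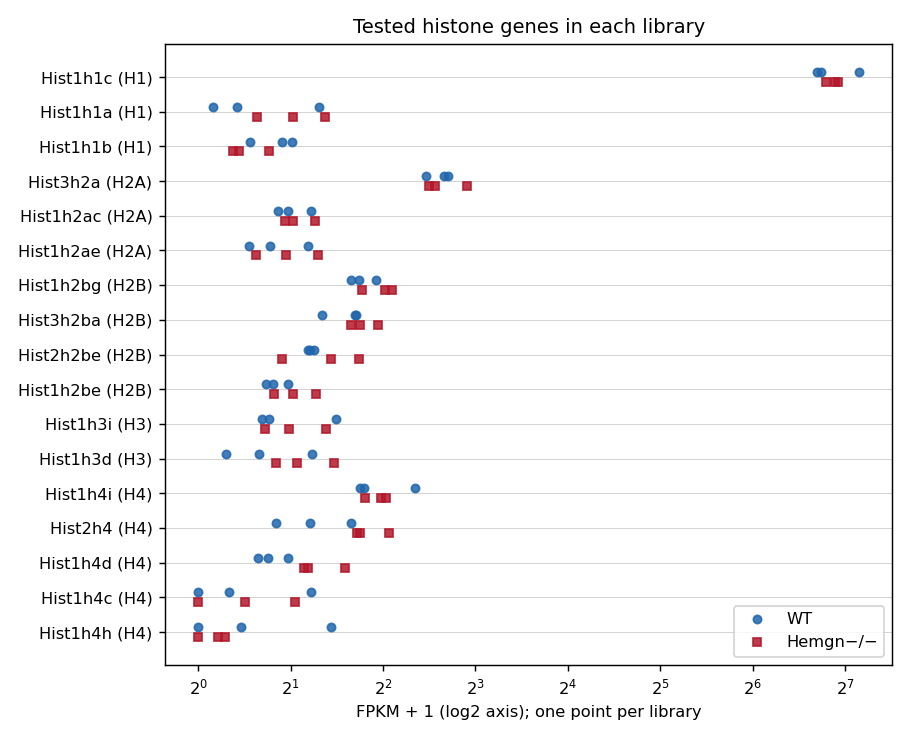
FPKM + 1 of the 17 tested histone genes on a log2 axis, 1 point per library, with WT as circles and Hemgn-/- as squares and the class in parentheses. Hist1h1c lies between 102 and 141 FPKM and every other gene lies below 7 FPKM, and in most genes circles and squares overlap.

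The high level of Hist1h1c was not shared by its neighbours. Hist1h3c, the next member downstream, starts 6.165 kb from the start of Hist1h1c and had a mean of 0.166 FPKM, and the 8 measured members within 25 kb after that start ranged from 0.0135 FPKM (Hist1h2ab) to 0.854 FPKM (Hist1h1a). On the other side Hist1h4c (0.515 FPKM) and the testis linker histone gene Hist1h1t (0.0198 FPKM) were closest. Further upstream, Hist1h2bg at 2.67 FPKM was the highest member of the same chromosomal group after Hist1h1c.

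**Figure D2:**
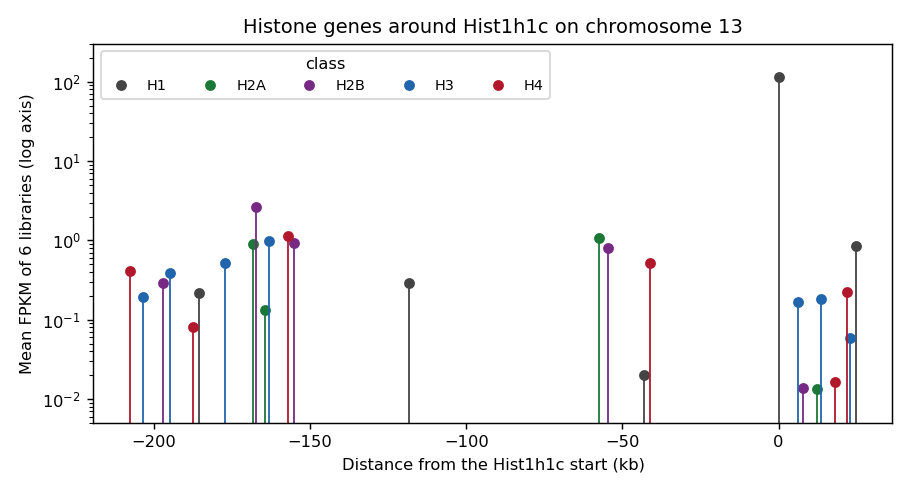
Mean FPKM over 6 libraries (log axis) of the measured histone genes in the second group on chromosome 13, by distance from the Hist1h1c start in kb, coloured by class. Hist1h1c stands at 116 FPKM, and the next highest gene of the group, Hist1h2bg, at 2.67 FPKM.

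Levels differed by where the annotated transcript ends. In 19 measured members whose transcript ends within 60 bases of the stem-loop, the median level was 0.0333 FPKM, none had a mean above 0.413 FPKM (Hist1h4h), and 1 passed the filter for testing. In the 23 measured members whose transcript goes on beyond 60 bases, the median was 0.519 FPKM and the highest was Hist1h1c, which goes on for 840 bases. An AATAAA poly(A) signal lay after the stem-loop in 13 of these 23, with a median of 0.899 FPKM, and the 10 without it had a median of 0.517 FPKM and a maximum of 2.91 FPKM (Hist1h4i). Over the 42 measured members with a stem-loop, Spearman's rho between the bases after it and the mean FPKM was 0.746, as a description over genes that share libraries and sequence. The limit of 60 bases was chosen after the values were seen. With a limit of 100 bases the medians were 0.0456 and 0.709 FPKM, and with 300 bases they were 0.0815 and 0.519 FPKM, while the highest level on the near side rose to 2.67 FPKM. Annotated ends are themselves built from transcript evidence, and FPKM divides by transcript length, so the part of either in these values was not tested.

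**Figure D3:**
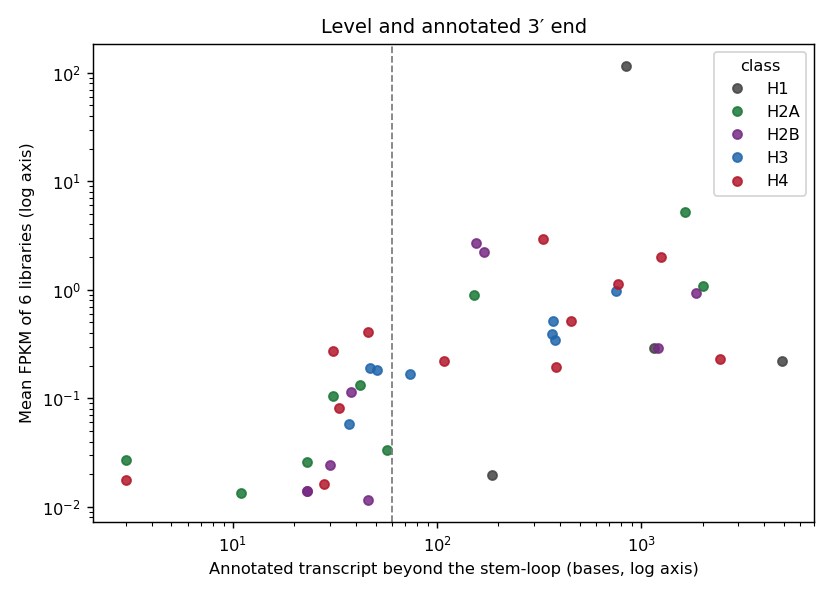
Mean FPKM over 6 libraries against the annotated bases beyond the stem-loop, both on log axes, for the 42 measured members with a stem-loop, coloured by class. The dashed line marks 60 bases. The 19 genes to its left stay at or below 0.413 FPKM, and Hist1h1c is the point at 116 FPKM.

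Single members show the pattern and its exceptions. Hist1h1d, with the longest annotated stretch after the stem-loop (4884 bases), had a mean of only 0.220 FPKM. Hist1h2bb, an H2B gene 6366 bases beyond the end of Hist1h1c, has 23 annotated bases after its stem-loop, and fragments were found in 1 library only (WT replicate 1, 0.0832 FPKM). Its stem-loop and that of Hist1h1c are printed above. Hist1h4h is the 1 tested gene on the near side, and it was tested because of a single library (1.71 FPKM in WT replicate 1).

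Promoter letters also separated the classes. RefSeq promoters (GRCm38.p6, 250 bases before to 50 after the start) could be matched for 62 of the 67 members, and motifs were searched on both strands. TATAAA was present in 35 of 62 (56.5%), against 15.7% of 27025 genes. CCAAT was found in 53 of 62 (85.5%), against 41.1% of all genes, and the 53 comprised every matched H1, H2A, H2B and H3 gene and 3 of 12 H4 genes. AAACACA, known as an element of H1 promoters, occurred in 5 of 6 H1 genes, against 8.22% of all genes, and in 2 of 18 H2A, 2 of 16 H2B, 0 of 10 H3 and 0 of 12 H4 genes. The proximal promoter of Hist1h1c is shown as the promoter of the highest member, from base -130 to base -1 (chr13:23738677-23738806, plus strand), with AAACACA and CCAAT in capitals. H1 genes with the same letters, such as Hist1h1d at a mean of 0.220 FPKM, were far lower, and a match describes the sequence only.
Hist1h1c promoter: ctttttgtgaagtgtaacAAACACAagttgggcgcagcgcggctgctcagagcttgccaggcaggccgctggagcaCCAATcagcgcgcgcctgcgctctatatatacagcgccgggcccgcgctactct

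The comparison of Hemgn-/- with WT donors asked whether loss of Hemgn alters these genes in transplanted HSPCs. Hemgn itself had 5.64, 2.96 and 4.68 FPKM in WT and 0.755, 0.913 and 1.60 FPKM in Hemgn-/- libraries, and it was lower in Hemgn-/- (log2 fold change -1.37, SE 0.23, Benjamini-Hochberg adjusted p = 0.0114 in limma over 13739 genes tested). Fold changes here are differences of log2(FPKM + 1), which understate changes of low genes. The sorted population was checked against its markers. Of the HSPC markers, Kit (5.50 to 7.24 FPKM), Ly6a (8.27 to 17.3 FPKM) and Cd34 (7.23 to 11.9 FPKM) were present in every library, and the 12 markers summed to 51.9 to 57.2 FPKM in WT and 61.6 to 68.9 FPKM in Hemgn-/-, with 2 of 12 higher. Granulocyte genes were far more abundant and lower in Hemgn-/- libraries, at 72298 to 77908 against 46220 to 51613 summed FPKM over 10 markers, 5 of which fell. Erythroid markers, a list that includes Hemgn itself, summed to 455 to 543 FPKM in WT and 32.3 to 46.7 FPKM in Hemgn-/- libraries. Of 8 tested, 4 fell, with the targeted gene Hemgn among them. These marker counts are at an adjusted p under 0.05, beside 4.37% higher and 2.09% lower over all genes tested. By sign alone, 5 of 12 HSPC markers had negative fold changes, and 2 of 8 erythroid and 0 of 10 granulocyte markers had positive ones. The part of these differences in the histone values was not tested, and in bulk samples fewer cells of a type and less RNA per cell cannot be told apart.

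Of the 54 measured members, 17 exceeded 1 FPKM in at least 1 library and were tested, 3 of H1, 3 of H2A, 4 of H2B, 2 of H3 and 5 of H4, and 37 were under this filter. At an adjusted p under 0.05 limma called 0 of the 17, where 6.46% of all genes tested were called (4.37% higher and 2.09% lower in Hemgn-/-), and the lowest adjusted p of a member was 0.167. With limma voom on fragments recovered from the FPKM steps, 0 members were called as well. Without adjustment, 2 of the 17 had p under 0.05 in limma and 1 in limma voom, against 21.4% of all genes in limma. Hist2h4 was the 1 member past p under 0.05 with at least a 1.5-fold change, the thresholds of the study, where 6.83% of all genes passed (4.1% higher and 2.74% lower in Hemgn-/-). The groups did not overlap for 2 of 17, Hist2h4 and Hist1h4d, against 27.4% of all genes. The median log2 fold change of the tested members was 0.12, and over all genes tested it was 0.09, with 13 members above 0 and 4 below. Standard errors ran from 0.12 to 0.39, so that small changes were not detectable for most members.

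**Figure D4:**
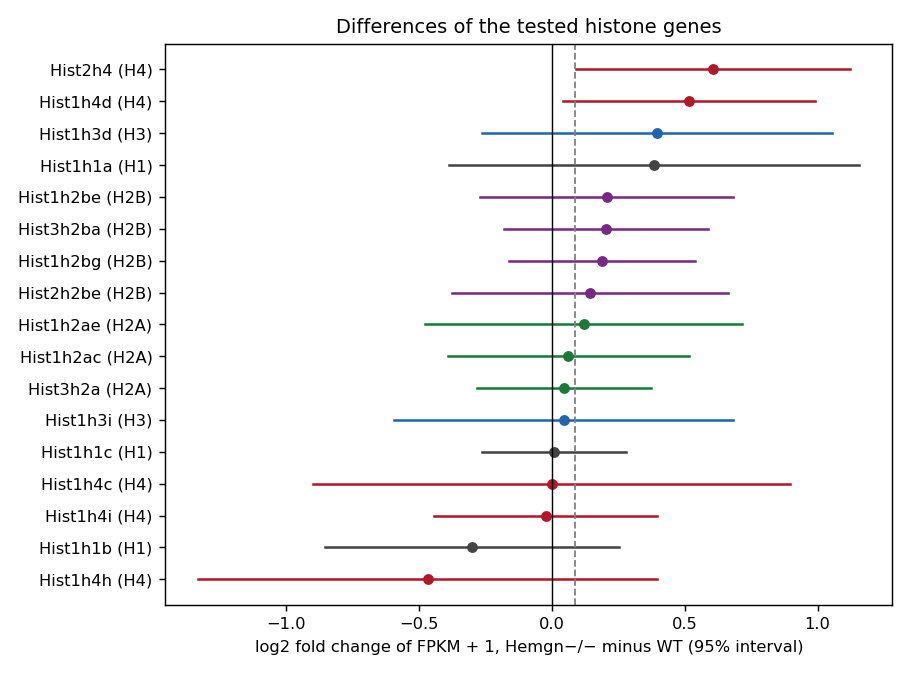
Log2 fold change of FPKM + 1 between Hemgn-/- and WT libraries for the 17 tested histone genes, with 95% confidence intervals from limma and the class in colour. The solid line marks 0 and the dashed line the median of all genes tested (0.09). Intervals of 15 genes include 0, and those of Hist2h4 and Hist1h4d lie above it.

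H4 genes held both the highest and the lowest fold changes. Hist2h4, an H4 gene of the chromosome 3 cluster (chr3:96261682-96263311), had 1.32, 2.16 and 0.797 FPKM in WT and 3.17, 2.30 and 2.38 FPKM in Hemgn-/- libraries. Every Hemgn-/- value was above every WT value, although the closest pair, 2.16 and 2.30 FPKM, lay near each other. The log2 fold change was 0.61 (SE 0.23, 95% interval 0.09 to 1.12, Benjamini-Hochberg adjusted p = 0.167 in limma), and the mean FPKM differed by a ratio of 1.84. No member was past the thresholds of the study without WT replicate 3, without Hemgn-/- replicate 1, or under median-ratio or quantile scaling. Without WT replicate 1 it was Hist1h4d and not Hist2h4 that passed.

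Hist1h4d (chr13:23581598-23582735), a further H4 gene, had 0.965, 0.687 and 0.571 FPKM in WT and 1.28, 2.01 and 1.22 FPKM in Hemgn-/- libraries, on 18 to 60 fragments. The groups did not overlap, and the log2 fold change was 0.52 (SE 0.21, limma Benjamini-Hochberg adjusted p = 0.198). Hist1h4i, the highest H4 gene, had 4.07, 2.36 and 2.48 FPKM in WT and 2.51, 2.94 and 3.09 FPKM in Hemgn-/- libraries. Its log2 fold change was -0.02 with a 95% interval of -0.44 to 0.40, and the highest value was a WT library. Hist1h4h had the lowest fold change (-0.47, SE 0.38), but its values of 1.71, 0 and 0.384 FPKM in WT and 0, 0.163 and 0.221 FPKM in Hemgn-/- rest on WT replicate 1. Hist1h4c, with 0, 1.33 and 0.264 FPKM in WT and 0, 1.07 and 0.422 FPKM in Hemgn-/- libraries, varied more between replicates than between genotypes.

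For the linker histones, Hist1h1c gave the most precise comparison of all members. Its log2 fold change was 0.01 (SE 0.12, limma Benjamini-Hochberg adjusted p = 0.981), and the 95% interval of -0.26 to 0.28 bounds the difference for this gene. Hist1h1b, which encodes H1.5, had 1.02, 0.473 and 0.874 FPKM in WT and 0.294, 0.360 and 0.699 FPKM in Hemgn-/- libraries (log2 fold change -0.30, SE 0.24). Hist1h1a, which encodes H1.1, had 0.114, 1.48 and 0.341 FPKM in WT and 1.03, 1.60 and 0.560 FPKM in Hemgn-/- libraries (log2 fold change 0.39, SE 0.34). In both genes the groups overlapped and the adjusted p values, 0.524 and 0.557, missed the threshold in limma. The remaining linker genes Hist1h1d, Hist1h1e and Hist1h1t stayed under 0.5 FPKM in every library.

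H2A and H2B genes showed small differences with overlapping groups. Hist3h2a had 5.49, 4.53 and 5.33 FPKM in WT and 4.65, 4.90 and 6.51 FPKM in Hemgn-/- libraries (log2 fold change 0.05, 95% interval -0.28 to 0.37), and it overlaps Trim17 in the annotation, with which it may share fragments. Hist1h2ac and Hist1h2ae had log2 fold changes of 0.06 and 0.12. In the annotation 15 measured members overlap another gene. The tested ones include Hist1h2ac, Hist1h2ae and Hist1h2be, the last of which overlaps Hist1h1e and Gm11398. The 4 tested H2B genes all had values above 0, between 0.14 (Hist2h2be) and 0.21 (Hist1h2be), and none passed the test. Hist1h2bg had 2.80, 2.15 and 2.34 FPKM in WT and 3.07, 3.28 and 2.41 FPKM in Hemgn-/- libraries (SE 0.15). Hist3h2ba had 2.27, 1.53 and 2.23 FPKM in WT and 2.14, 2.86 and 2.37 FPKM in Hemgn-/- libraries (SE 0.17). Hist2h2be, an H2B gene of the chromosome 3 cluster, was tight in WT at 1.28 to 1.38 FPKM and spread in Hemgn-/- at 0.876, 2.35 and 1.70 FPKM.

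The 2 tested H3 genes were variable. Hist1h3d had 0.237, 1.35 and 0.578 FPKM in WT and 0.788, 1.10 and 1.77 FPKM in Hemgn-/- libraries (log2 fold change 0.40, SE 0.29). Hist1h3i had 0.617, 1.81 and 0.702 FPKM in WT and 0.975, 0.651 and 1.60 FPKM in Hemgn-/- libraries (log2 fold change 0.04, SE 0.28). The groups overlapped in each gene, and each value of Hist1h3i rests on 6 to 19 fragments.

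Sums over all measured members of a class were given as a description. They do not depend on how fragments were divided between near-identical genes of equal length in the same class. Division between genes of unlike length, or with genes outside the sum, can still change them. H1 summed to 118 ± 22.2 FPKM in WT and 118 ± 5.60 FPKM in Hemgn-/- libraries (SD, n = 3), a log2 ratio of -0.01. H2A summed to 7.60 ± 0.244 and 7.93 ± 0.611 FPKM (log2 ratio 0.06), H2B to 7.97 ± 0.993 and 9.75 ± 1.43 FPKM (0.29), H3 to 3.49 ± 1.05 and 4.67 ± 0.797 FPKM (0.42) and H4 to 7.98 ± 2.13 and 8.21 ± 0.631 FPKM (0.04). The groups overlapped in all 5 classes. In fragments per 1000000 the H4 log2 ratio was 0.32, and with 1 library left out the ratio of summed FPKM ranged from -0.16 to 0.19 for H4 and from 0.27 to 0.70 for H3. Summed over the 53 measured members other than Hist1h1c, the WT libraries had 30.6, 30.6 and 25.7 FPKM and the Hemgn-/- libraries 29.6, 35.9 and 32.3 FPKM, which overlapped as well (log2 ratio 0.17). The same sum in fragments per 1000000 gives long transcripts more weight. It was 40.2, 42.0 and 36.6 in WT and 42.7, 51.3 and 45.4 in Hemgn-/- libraries and did not overlap (log2 ratio 0.23). The closest pair, 42.0 in WT and 42.7 in Hemgn-/-, lay near each other. Among all single genes tested, the groups did not overlap in FPKM for 27.4%. By location, the chromosome 3 cluster had 4 measured genes, Hist2h4 and Hist2h2be among them. They summed to 3.27, 3.63 and 2.67 FPKM in WT and 4.09, 5.13 and 4.52 FPKM in Hemgn-/- libraries without overlap (log2 ratio 0.52). The sum had means of 3.19 and 4.58 FPKM, beside 1.43 and 2.62 FPKM for Hist2h4 alone. Hist2h2be had 1.33 and 1.64 FPKM with overlapping groups, and Hist2h3c2 went the other way at 0.436 and 0.253 FPKM. At the other locations the groups overlapped, with log2 ratios of -0.23 for the 20 measured genes of the first group on chromosome 13, 0.02 for the 27 of the second, 0.13 for the 2 on chromosome 11 and -0.14 for the 1 on chromosome 6.

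Some members could not be separated by sequence. Of the 54 measured members, 13 shared at least 1 stretch of 100 bases with the transcript of another, non-overlapping gene, and in 5 of them, Hist1h2ao, Hist1h2ap, Hist1h2bq, Hist1h2br and Hist2h3c2, over 50% of such stretches were shared. These 5 genes were all under the filter, and their single values are uncertain. Among the tested genes Hist1h2ac and Hist1h2ae shared a smaller part.

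Listed replication-independent histone genes of H2A and H3 summed to far higher FPKM than the members of the same class, and 3 of the listed genes fell. As with the member levels above, the part of the library protocol in this difference was not tested. Single listed genes were not all higher, since H2afy2 (mean 0.898 FPKM) and H2afy (4.04 FPKM) were below the member Hist3h2a (5.24 FPKM). The 6 listed replication-independent H2A genes summed to 356 ± 26.5 FPKM in WT and 232 ± 5.03 FPKM in Hemgn-/- libraries, 27.4 to 50.9 times the H2A members in the same library. The 3 H3 genes (H3f3a, H3f3b and the centromeric Cenpa) summed to 654 ± 28.1 and 521 ± 11.6 FPKM, 96.2 to 230 times the H3 members. For H1 the order was the opposite, with H1f0 at 0.0536 to 0.178 times the H1 members, whose sum is mostly Hist1h1c. H1fx, also listed, was not found among the measured genes. Of 10 tested genes on this list 3 fell and none rose, where 6.46% of all genes were called. The list was set by gene name. Whether H2afx, Cenpa and the others are made independently of replication was not tested. H2afz, encoding H2A.Z, had 232, 221 and 238 FPKM in WT and 145, 148 and 139 FPKM in Hemgn-/- libraries (log2 fold change -0.68, limma Benjamini-Hochberg adjusted p = 0.000678). H2afx, encoding the H2A.X that is phosphorylated at DNA breaks, had 99.5, 73.1 and 102 FPKM in WT and 64.6, 53.3 and 57.7 FPKM in Hemgn-/- libraries (-0.63, adjusted p = 0.0285 in limma). H3f3b, encoding H3.3, fell from 638 ± 28.9 to 507 ± 10.3 FPKM (-0.33, adjusted p = 0.0124 in limma), and H3f3a, encoding the same protein, had 2.40 ± 0.469 and 2.29 ± 0.227 FPKM (-0.04). For H1f0, encoding the linker histone H1.0 of non-dividing cells, the values were 18.4 ± 7.06 and 8.40 ± 2.37 FPKM (log2 fold change -1.005), with an adjusted p of 0.0669 in limma. Without Hemgn-/- replicate 3, 1 of the list was called. Whether the replication-independent and the replication-dependent genes differ in their response was not tested.

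**Figure D5:**
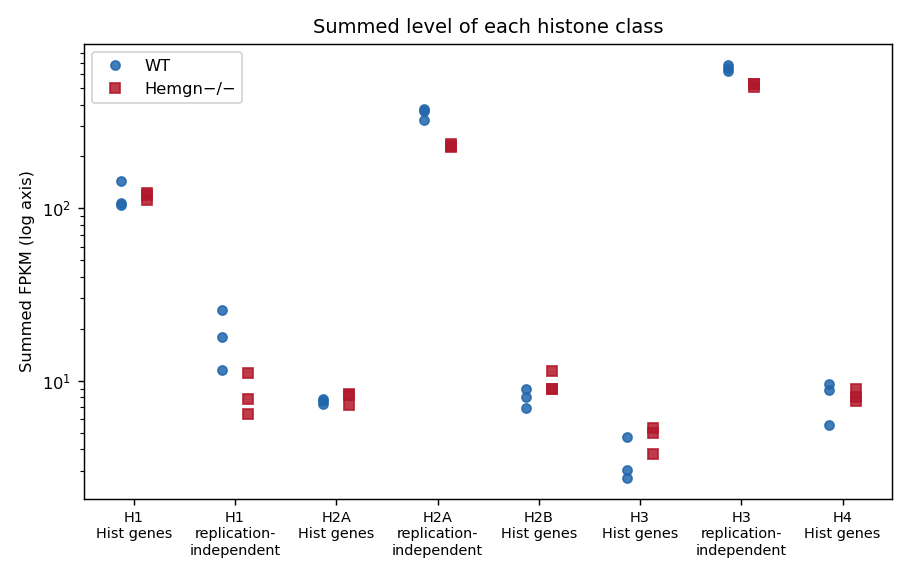
Summed FPKM per library (log axis) of the measured members of each histone class and of their replication-independent counterparts, WT as circles and Hemgn-/- as squares. Member sums of H2A, H2B, H3 and H4 lie between 2.73 and 11.4 FPKM with overlapping groups, and the replication-independent H2A and H3 sums lie at 228 to 682 FPKM, lower in every Hemgn-/- library.

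The genes that transcribe and process histone mRNA were measured at higher levels than most members. None of 19 tested genes of this list was called in limma, where 6.46% of all genes tested were called. Slbp, whose product binds the stem-loop, had 36.3, 34.5 and 35.9 FPKM in WT and 36.2, 28.5 and 31.8 FPKM in Hemgn-/- libraries (log2 fold change -0.15). Npat, the coactivator of histone gene transcription, had 2.48, 3.65 and 3.74 FPKM in WT and 5.08, 3.51 and 4.50 FPKM in Hemgn-/- libraries (0.33), and Casp8ap2, encoding a further factor of the histone locus body, had means of 6.84 and 6.80 FPKM (0.01). Of the U7 snRNP subunits, Lsm10 had means of 46.6 and 50.6 FPKM (0.12) and Lsm11 stayed under the filter at 0.434 and 0.435 FPKM. The adjusted p values of Slbp, Npat, Casp8ap2 and Lsm10 in limma were 0.431, 0.327, 0.986 and 0.413.

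Histone chaperones and cell cycle genes completed the set. Of 23 tested chaperone and assembly genes, 1 rose and 1 fell, beside 4.37% higher and 2.09% lower over all genes tested, so that this count is near the background. Ipo4, an importin that carries H3 and H4, had 4.96 ± 0.462 FPKM in WT and 7.23 ± 0.271 FPKM in Hemgn-/- libraries (log2 fold change 0.47, limma Benjamini-Hochberg adjusted p = 0.0432), and Asf1b, a chaperone of H3 and H4 in dividing cells, had 10.1 ± 2.68 and 5.49 ± 0.353 FPKM (-0.74, adjusted p = 0.0422 in limma). Of 29 tested S phase genes, beside the 6.46% called over all genes, Rrm2, a subunit of ribonucleotide reductase, fell from 9.89 ± 0.456 to 5.94 ± 0.986 FPKM (-0.66, adjusted p = 0.0188 in limma) and no other was called, with a list median of -0.09. Rrm2 was not called without WT replicate 1 or 3 or without Hemgn-/- replicate 1 or 2 (0 of the list), and the chaperone list held 1 call without WT replicate 2 and 0 without any other library. Of 20 mitosis genes 13 fell and none rose, with a list median of -0.62, beside 0.09 over all genes, and 8 were called without WT replicate 1 or without Hemgn-/- replicate 3. Examples were the spindle protein gene Nusap1 (24.4 ± 1.75 to 12.1 ± 1.57 FPKM), Cdc20, the activator of the anaphase-promoting complex (70.7 ± 3.37 to 36.3 ± 2.47 FPKM), and Birc5, encoding survivin (25.7 ± 1.501 to 13.6 ± 2.71 FPKM). The granulocyte and erythroid marker sums given above were lower in the same libraries, and their part in these changes was not tested.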

How the data were processed

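RNA-seq of CD45.2+ Lin- Sca-1+ donor cells, 3 WT and 3 Hemgn-/- libraries, was deposited by the authors as FPKM per gene on GRCm38, with all 6 columns assigned to samples by genotype and number. The submitters' processing notes name HISAT2 2.1.0, Bowtie2 2.2.3, TopHat2 and HTSeq 0.6.0 without their roles, and whether counting used strand is not given in the sources used here. The labels give retro-orbital injection and TruSeq libraries, whereas the methods of the study describe tail vein injection, LSK cells and Smart-Seq2, a protocol that primes on poly(A) tails; which applied is not known. A small deletion need not remove the Hemgn transcript, so its level is a partial check of the labels. The study calls the 3 replicates of a group biological but does not say whether each was 1 recipient or a pool, and p-values measure the spread between these samples.

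Of 24965 gene identifiers, 24921 matched GENCODE M21. FPKM steps gave fragments, whole within 0.05 in all 6 libraries for 95.7% of 13480 genes with at most 100 fragments. Genes above 1 FPKM in at least 1 library were tested on log2(FPKM + 1) with limma 3.58.1 (R 4.3.3, empirical Bayes with a trend, two-sided, Benjamini-Hochberg over all genes tested), after a check on simulated data. The chi-square between replicate libraries was 17.5 to 35.2 per gene, above that of sampling alone. Stem-loops were searched in GENCODE transcripts and shared stretches of 100 bases with BLAST+ 2.17.0. Alternatives were a pseudocount of 0.1, other filters and scalings, no trend, a replicate block, limma voom and leaving out each library.

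Members and lists were chosen with earlier results of these data known. Genes named were Hemgn, members past a threshold, the 3 highest members of each class, the 3 highest and the 3 lowest fold changes, stated histone factors, the 3 strongest calls per list and the 3 genes most like the summed members. For H3 only the 2 tested genes were named, since the third highest, Hist1h3e (mean 0.519 FPKM), was under the filter. Neighbours of Hist1h1c, members just inside or outside a limit, and genes of uncertain sequence were named after their values were seen.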

Additional observations from a re-analysis of the deposited data

How the results depend on the processing

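No member was called at an adjusted p under 0.05 under any alternative, the lowest adjusted p being 0.0684 without WT replicate 2. Members past p under 0.05 and 1.5-fold numbered 2 with a pseudocount of 0.1, 0 under median-ratio scaling, 0 under quantile normalization and 0 to 2 when a library was left out, where 1 was reported. Over all genes tested the median moved from 0.09 to 0.01 under median-ratio scaling and to 0.16 with equal FPKM totals, and calls over all genes went from 600 higher and 287 lower to 341 and 386 under median-ratio scaling, 368 and 346 under quantile normalization, 1062 and 238 with equal totals, 361 and 454 in limma voom, 309 and 157 with all genes above 0 and 237 and 153 without a trend. The log2 ratio of summed H2A became -0.0437 under median-ratio scaling and 0.148 with equal totals, and that of H4 became -0.06 under median-ratio scaling. Hemgn was no longer past the threshold with all genes above 0 (-1.37) or without WT replicate 3 (range -1.58 to -1.20 over the libraries left out). Calls in the chaperone list numbered 1 under median-ratio scaling, and with a library left out they ranged from 0 to 1; those in the S phase list ranged from 0 to 1, in the mitosis list from 8 (without WT replicate 1 or Hemgn-/- replicate 3) to 13, and in the replication-independent list from 1 (without Hemgn-/- replicate 3) to 3. Same-numbered WT and Hemgn-/- libraries had correlations of -0.04, -0.01 and 0.01, so the numbers were not taken as pairs; with a replicate block 636 genes were called in place of 887, 0 members, and 0 chaperone genes. Named members with fold changes near 0 took the other sign in some settings, and the cause was not tested. Under median-ratio scaling these were Hist1h1c (-0.0959), Hist3h2a (-0.0406) and Hist1h3i (-0.00707), under quantile normalization Hist1h1c (-0.0475), Hist3h2a (-0.0388), Hist1h2ac (-0.00949) and Hist1h3i (-0.0392), in limma voom Hist1h1c (-0.0975) and Hist3h2a (-0.0440), and with equal totals Hist1h4i (0.0421). With 1 library left out, the sign turned at least once for Hist1h1c (-0.0777 to 0.153), Hist3h2a (-0.0804 to 0.125), Hist1h2ac (-0.0301 to 0.162), Hist1h2ae (-0.0521 to 0.294), Hist2h2be (-0.0470 to 0.371), Hist1h3i (-0.131 to 0.298) and Hist1h4i (-0.130 to 0.166). For the 15 members chosen by the rule for named genes, the other 192 values kept their direction and their side of the adjusted threshold. At p under 0.05 and 1.5-fold, Hist2h4, Hist1h4d and Hist1h1a (past it without WT replicate 2) changed sides. With all genes above 0, all 54 measured members were tested, 4 had p under 0.05 and the lowest adjusted p was 0.269 in limma.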

Other observations

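The histone pseudogene Hist3h2bb-ps, which was not counted among the members, had 0.818, 1.01 and 1.32 FPKM in WT and 1.80, 2.22 and 0.967 FPKM in Hemgn-/- libraries, on 9 to 27 fragments (log2 fold change 0.36, limma Benjamini-Hochberg adjusted p = 0.420). Its mean of 1.36 FPKM was above that of 47 of the 54 measured members.

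In 5 of the 17 tested members, Hist1h1a, Hist1h1c, Hist1h2ac, Hist1h2ae and Hist1h4c, replicate 2 was the highest library in both genotypes, and 8 of the 17 had their highest value in Hemgn-/- replicate 2. Among tested genes that are not members, the log2(FPKM + 1) of Dennd1a (Pearson's r = 0.992), Nrbf2 (0.986) and Gm45822 (0.983) followed that of the summed members most closely over the 6 libraries, a description in which the sum is mostly Hist1h1c.

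Other marker lists also differed between the genotypes. Their counts are at an adjusted p under 0.05 in limma, beside 4.37% higher and 2.09% lower over all genes tested. B cell markers summed to 1157 to 1216 FPKM in WT and 1378 to 1550 FPKM in Hemgn-/- libraries, with 3 of 6 higher, and T and NK cell markers to 102 to 112 and 119 to 140 FPKM, with 2 of 6 higher. Plasmacytoid dendritic cell markers summed to 180 to 207 and 220 to 258 FPKM, with 2 of 5 higher. Eosinophil and basophil markers summed to 407 to 498 and 236 to 245 FPKM, with 3 of 6 lower. Fold changes of the opposite sign were found in 1 of 6 B cell, 2 of 6 T and NK cell and 1 of 6 eosinophil and basophil markers. For macrophage and monocyte markers (421 to 479 and 356 to 445 FPKM, 2 of 6 higher and 1 lower) and endothelial markers (38.5 to 42.5 and 25.5 to 37.9 FPKM, 0 of 5 tested called) the sums overlapped in the first list and not in the second. Their part in the histone values was not tested.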
